A study of Mus musculus with 2 samples.

Results

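Noncollagenous cartilage matrix genes were examined in adipose-derived stromal cells, fibroblast-like progenitors cultured from fat. The group held Matn1, Matn2, Matn3, Matn4, Cilp, Cilp2, Prg4, Chad, Ucma and Mia, which were 10 of 30142 named genes on the array. They were chosen as gene symbols, each read from the transcript cluster that carried only that symbol, and every member was found. RNA was measured on 1 array from wild-type mice and 1 array from mice with a global Wisp1 knockout. The mice of both groups were C57BL/6J and 6 to 10 weeks old, the fat was inguinal, and the cells were grown in DMEM with 15% fetal bovine serum. Per the labels, Wisp1 exons 1 to 5 on chromosome 15 were floxed and removed after a cross to a mouse named Cre-neo. The labels do not say what drives that Cre, nor how many mice were used. The study concerned chondrogenic differentiation in heterotopic ossification, the formation of bone within soft tissue.

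Cartilage is a network of fibrillar collagen and aggrecan, and noncollagenous proteins link, lubricate and protect it. Matrilins are adaptor proteins with von Willebrand factor A domains that bridge collagen fibrils and proteoglycans. The other members are the secreted cartilage intermediate layer proteins, the joint lubricant lubricin, the collagen-binding chondroadherin, and a pair of small proteins made by chondrocytes. Fat stromal cells can be turned into chondrocyte-like cells by suitable media, and the medium named here was a growth medium.

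Values are RMA log2 expression, so a difference of 1 is 2-fold. Each difference is knockout minus wild type. There were no replicates, so no difference could be set against a replicate spread, no p-value was computed, and each comparison is of these 2 arrays. Levels of different genes come from different probes and were not set against each other. Sums over marker lists, given further on, weight each gene by its probe level. A gene was called bright when its mean over both arrays reached 4.65, the median of named genes, and dim below that. As a second marker of low signal, the 95th percentile of 1225 olfactory receptor genes, which these cells should not use, was 3.94 on the wild-type array and 3.97 on the knockout array. Wisp1 itself (now Ccn4) was at 7.79 on the wild-type array and 5.40 on the knockout array, a difference of -2.39.

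None of the 10 genes differed by 2-fold in either direction. The sizes ran from 0.04 for Chad to 0.38 for Cilp, with a median size of 0.13, beside 0.09 over all named genes. At the same threshold, 0.0332% of named genes were 2-fold higher in the knockout and 0.0564% were 2-fold lower, or 0.0663% and 0.0995% of the bright ones. Of the 10 genes, 6 were higher in the knockout array and 4 were lower, with a median difference of 0.07. Over all named genes 46.2% were higher and 46.6% were lower, and the median difference was 0. The 6 bright members split evenly, 3 higher and 3 lower with a median of 0.02, whereas among all bright genes 55.9% were higher and the median was 0.03. The matrix genes therefore showed no common direction among their bright members.

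**Figure D1:**
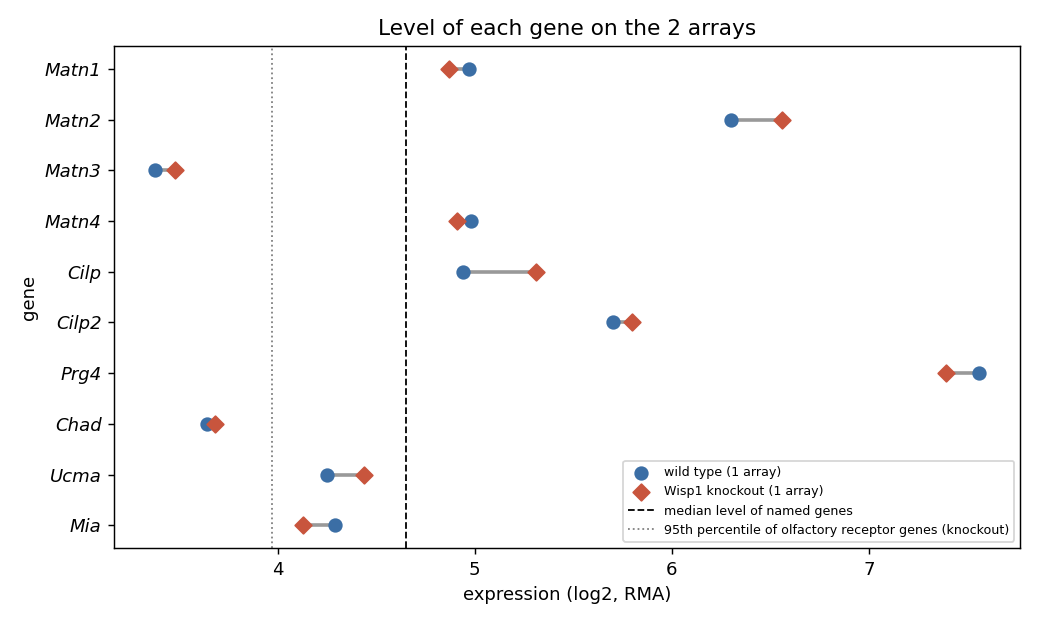
Log2 expression of each of the 10 genes on the wild-type array (circle) and the Wisp1 knockout array (diamond), 1 array each, joined by a line. The dashed line is the median level of named genes, 4.65, the dotted line is the 95th percentile of olfactory receptor genes on the knockout array, 3.97, and the longest line joins the values of Cilp.

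Cilp had the largest difference of the group. It encodes cartilage intermediate layer protein, a matrix glycoprotein of articular cartilage that is also made by fibroblasts and is known to bind TGF-beta. Its level was 4.94 on the wild-type array and 5.31 on the knockout array, a difference of 0.38 (1.30-fold). It was the only member with a difference above 0.32 in size, against 2.72% of all named genes and 3.89% of bright ones that were higher by as much. No member was lower by 0.32, a size that 3.06% of all named genes and 2.64% of bright ones reached. Of the 3993 other named genes whose mean lay within 0.5 of its own, 3.63% had a difference at least as large in size.

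Cilp2, its close relative, was at 5.70 on the wild-type array and 5.80 on the knockout array. Its difference of 0.10 had the same sign as that of Cilp and was smaller, and 45.5% of the 3751 other genes of like level differed by at least as much. Both Cilp genes were thus higher in the knockout array, and the smaller of these differences was ordinary for its level.

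The promoter of Cilp is shown because its difference was the largest, that of Cilp2 as its relative, and that of Chad is shown for a feature it shares with Cilp. Each is the 250 bases before the start site from RefSeq, on GRCm38.p6, printed 5′ to 3′ on the gene's strand. Cilp lies at chr9:65264930-65265179 on the plus strand, Cilp2 at chr8:69887393-69887642 on the minus strand and Chad at chr11:94564797-94565046 on the plus strand. Capitals mark matches to the motifs searched.
Cilp: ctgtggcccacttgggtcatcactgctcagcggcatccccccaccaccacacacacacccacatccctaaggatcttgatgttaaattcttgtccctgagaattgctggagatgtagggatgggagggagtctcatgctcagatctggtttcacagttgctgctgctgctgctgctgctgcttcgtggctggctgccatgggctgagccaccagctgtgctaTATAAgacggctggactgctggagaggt
Cilp2: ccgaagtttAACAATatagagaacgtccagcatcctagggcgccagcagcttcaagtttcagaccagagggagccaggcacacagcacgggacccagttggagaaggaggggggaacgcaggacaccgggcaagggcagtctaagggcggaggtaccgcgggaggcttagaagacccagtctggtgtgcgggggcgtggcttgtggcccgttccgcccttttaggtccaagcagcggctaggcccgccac
Chad: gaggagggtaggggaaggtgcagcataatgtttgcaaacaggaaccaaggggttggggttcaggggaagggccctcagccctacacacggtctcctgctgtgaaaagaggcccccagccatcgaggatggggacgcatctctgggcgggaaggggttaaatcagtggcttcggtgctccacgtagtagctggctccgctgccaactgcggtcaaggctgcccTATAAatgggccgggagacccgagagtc

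The Cilp and Chad promoters each held TATAA, the core of a TATA box, with its first base 28 bases before the start site. On the strand of the gene and between 35 and 22 bases before the start, that motif was found in 3.14% of 32851 RefSeq promoters. Anywhere in the 300-base window and on either strand, 24.9% held it. The Cilp2 promoter had no such match and held AACAAT, a SOX-type motif present in 10.7% of promoters, 241 bases before the start. Cilp2 also had 15 CpG dinucleotides in its 250 bases, against 3 in Cilp and 10 in Chad. Promoters were matched for 8 of the 10 genes, in 9 windows, and not for Matn2 and Prg4. Over 300 bases, from 250 before to 50 after each start, the motifs searched on both strands were AACAAT for SOX factors, a SOX variant ACAATG that can overlap it, the TEAD motif GGAATG, the E-box CACGTG, the AP-1 motif TGACTCA and the TATA core named above. Beside the matches above, the TEAD motif was found 2 times in Matn3 and 1 time in 1 of the 2 Matn4 windows, and the AP-1 motif 1 time in Ucma, against 14.7% and 5.20% of all promoters. No member window held the SOX variant or the E-box, which 12.6% and 7.15% of all promoters did. These letter matches are descriptions and were not tied to the expression values.

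Among the matrilins, 2 were higher and 2 lower in the knockout array. Matn2, the matrilin of loose connective tissue and nerve as well as cartilage, was at 6.30 on the wild-type array and 6.56 on the knockout array. The difference of 0.26 (1.20-fold) was the next largest of the 10 genes after Cilp, and 9.60% of the 3822 other genes of like level differed by at least as much. Matn2 is on chromosome 15, as is Wisp1, with 124 protein-coding genes between them in RefSeq.

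Matn1, the first matrilin described and a typical product of chondrocytes, was at 4.97 on the wild-type array and 4.87 on the knockout array, a difference of -0.10. Matn4, which is found in many tissues, was at 4.98 and 4.91, a difference of -0.06. Both were close to the median level of named genes, and 42.3% and 60.9% of the other genes of like level differed by at least as much. Matn3, a growth cartilage matrilin altered in some inherited skeletal dysplasias, was at 3.38 and 3.48. That level was below the olfactory receptor percentile on both arrays. The Matn3 difference of 0.11 was thus read within the signal range of genes these cells should not use.

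Prg4 encodes lubricin, the mucin-like glycoprotein that lubricates joint surfaces. It was at 7.56 on the wild-type array and 7.39 on the knockout array, and its difference of -0.16 (1.12-fold lower) was the lowest of the group together with that of Mia. Of the 2822 other genes of like level, 24.7% differed by at least as much. Of the 7 genes listed as markers of synovial lining or articular surface cells, Prg4 included, 2 were higher and 4 were lower (median -0.12). Only 2 of the 7 were bright, Prg4 and Htra4, and Htra4 was at 6.03 and 6.04 (0.01). The lowest of the 7 was the laminin-binding integrin gene Itga6, at 4.25 and 3.99 (-0.26). Itga6 was dim and close to the olfactory receptor percentile.

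Chad encodes chondroadherin, a leucine-rich repeat protein that binds collagen and integrins. It was at 3.64 on the wild-type array and 3.68 on the knockout array, a difference of 0.04, and both values were below the olfactory receptor percentile. The gene overlaps Acsf2, an acyl-CoA synthetase gene, which was higher by 0.32 (5.63 to 5.95). At that signal, Chad cannot show whether it shares the difference of Acsf2. Its relative Chadl, a chondroadherin-like gene of cartilage, was at 5.08 and 5.22 (0.15).

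Ucma encodes a Gla-rich protein of upper growth zone cartilage that is known to restrain mineral deposition. It was dim, at 4.25 on the wild-type array and 4.44 on the knockout array, a difference of 0.19, and 19.8% of the 4872 other genes of like level differed by at least as much. Ggcx and Vkorc1, enzymes of the vitamin K cycle that makes Gla residues, were also higher, by 0.35 (8.02 to 8.37) and 0.18 (9.95 to 10.13). The better known Gla proteins lay on the other side. Mgp, which inhibits calcification of cartilage and vessels, differed by -0.37 (10.32 to 9.94) and Bglap, osteocalcin, by -0.18 (5.51 to 5.32).

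Mia encodes a small secreted protein of chondrocytes and melanoma cells that binds fibronectin. It was dim, at 4.29 on the wild-type array and 4.13 on the knockout array, a difference of -0.16, and 26.4% of the 5045 other genes of like level differed by at least as much. Among its relatives, Otor differed by -0.19 (3.44 to 3.25) and Mia2 by 0.14 (2.87 to 3.01), and both were below the olfactory receptor percentile on both arrays. Mia3 was bright and differed by 0.16 (8.01 to 8.17). Mia2 and Mia3 serve export of large cargo from the endoplasmic reticulum. Of 7 melanocyte markers 5 were lower and 2 were higher (median -0.03), and Mlana, Tyr and Dct were at or below 3.41 on both arrays. Mitf, also used outside melanocytes, was bright and had one of the largest differences in that list (6.31 to 6.46, 0.15). So did Tyrp1 (3.47 to 3.32, -0.15), which was below the olfactory receptor percentile on both arrays. Pmel (4.35 and 4.29) and Mc1r (3.96 and 4.04) were dim but above that percentile.

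**Figure D2:**
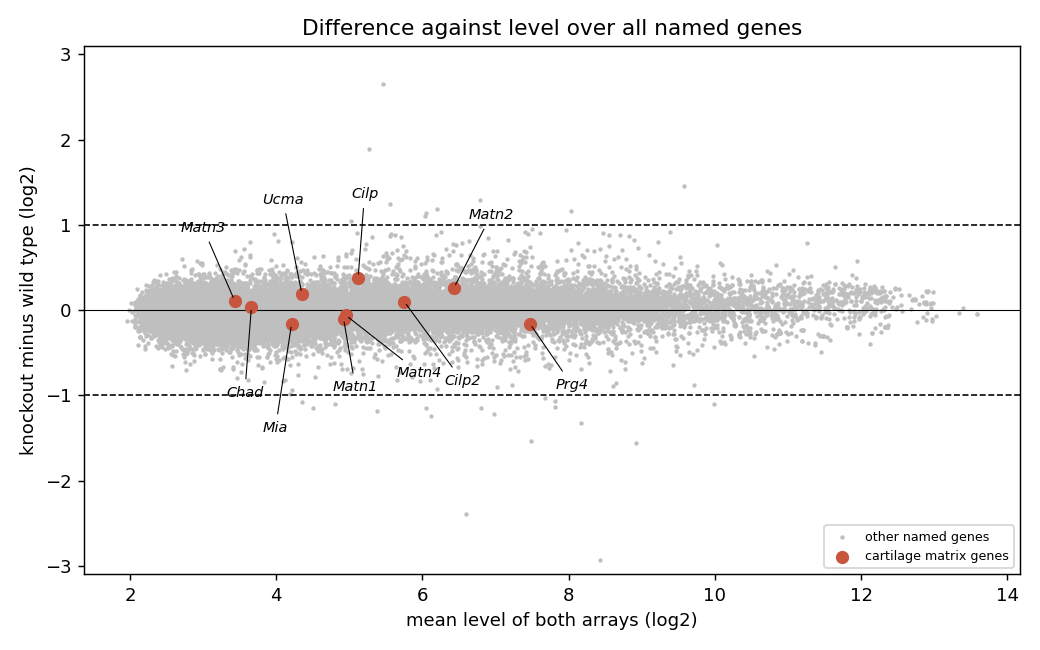
Difference (knockout minus wild type, log2) against the mean level of both arrays (log2) for all 30142 named genes in grey and the 10 cartilage matrix genes in red, with dashed lines at 2-fold. All 10 lie between -0.16 and 0.38, inside the 2-fold lines.

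Of 24 other cartilage matrix and differentiation genes 16 were higher and 7 were lower (median 0.06), and none was past 2-fold. Among the 16 bright ones 12 were higher and 4 were lower (median 0.08), and this split was not tested against that of the members. Over all bright named genes 55.9% were higher, with a median of 0.03. Col11a1, a minor fibrillar collagen chain, had the largest difference at 0.46 (6.82 to 7.28), and Prelp, a leucine-rich proteoglycan that anchors collagen to basement membrane, the lowest at -0.40 (12.32 to 11.93). Fmod, which regulates collagen fibril growth, was at 9.05 and 9.43 (0.38). The principal cartilage components were higher by little, Col2a1 by 0.18 (6.16 to 6.34) and Acan, which was dim, by 0.12 (4.19 to 4.31).

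Of 11 relatives of the members, which share sequence or domains with them, 3 were higher and 7 were lower (median -0.06). The 7 bright ones had 2 higher and 5 lower (median -0.06). Over all named genes 46.6% were lower, or 39.0% of the bright ones, and the list was not tested against those shares. Mgp and Chadl in that list are also among the other cartilage genes above. Vit, a von Willebrand A domain matrix gene, had the lowest value in that list at -0.70 (5.51 to 4.82), followed by Mgp. The inner ear gene Coch, which carries the same domain, was at 5.00 and 4.94 (-0.06), and Vtn was at 4.65 on both arrays.

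Of 25 measured partners, receptors and modifying enzymes 16 were higher and 9 were lower (median 0.09). The 21 bright ones had 14 higher and 7 lower (median 0.11). Over all bright named genes 55.9% were higher and the median was 0.03, and the lists were not tested against that share. The chains of collagen VI, the beaded filament collagen to which matrilins attach through small proteoglycans, had the largest differences. Col6a2 was at 8.48 on the wild-type array and 9.09 on the knockout array (0.60), Col6a1 at 9.21 and 9.70 (0.49), and Col6a3 at 9.41 and 9.87 (0.46). The 3 chains thus exceeded the difference of every one of the 10 genes. Dcn, a proteoglycan that links matrilins to collagen VI, differed by 0.32 (8.53 to 8.84), and Comp, a pentameric matrix protein that binds matrilins, by 0.11 (7.94 to 8.05). Igf1, the growth factor whose action Cilp is known to oppose, was higher by 0.46 (7.61 to 8.07), and its receptor gene Igf1r differed by -0.19. Tgfb1, a ligand bound by Cilp, differed by 0.17 (8.23 to 8.40). Cd44, a receptor for lubricin and hyaluronan, was lower by 0.30 (8.66 to 8.36), and the lubricin receptors Tlr4 and Tlr2 differed by -0.22 and -0.07. Bmp2, a ligand bound by matrilin-3, was dim and lower (4.19 to 3.82, -0.36).

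**Figure D3:**
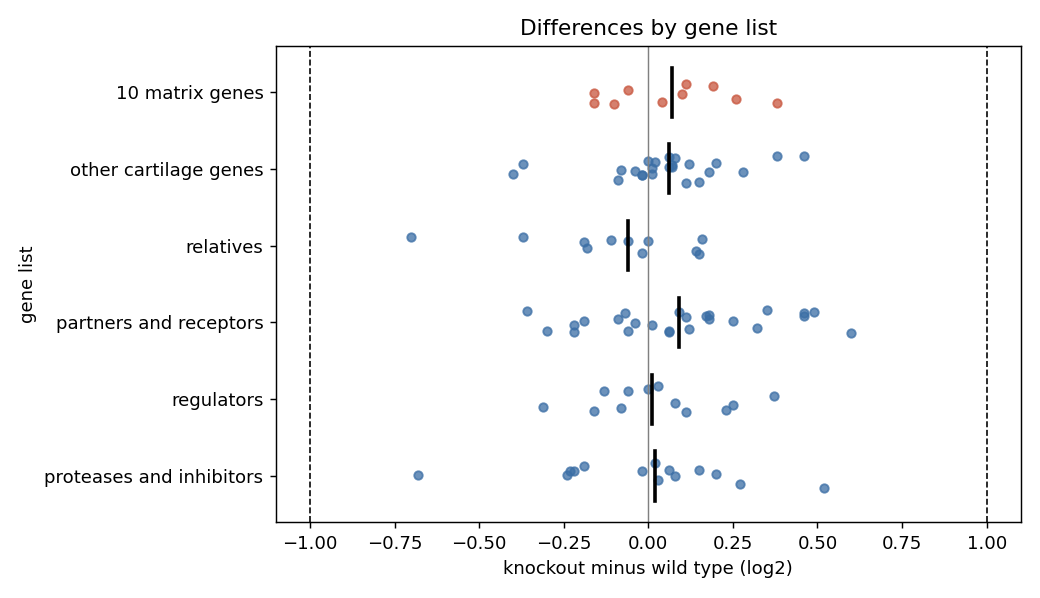
Difference (knockout minus wild type, log2) of each gene in the 10 cartilage matrix genes and the 5 lists of related genes, 1 point per gene, with the list median as a black bar and dashed lines at 2-fold. Some genes are in more than 1 list. No point passes 2-fold, and the list medians lie between -0.06 and 0.09.

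Regulators of cartilage matrix genes were split, with 6 higher and 5 lower of 12 measured and a median of 0.01. Sox9, the transcription factor required for cartilage formation, had the largest difference (8.56 to 8.93, 0.37), and Prkg2, a kinase of growth plate maturation, the lowest (5.31 to 5.00, -0.31). The SOX partners Sox5 (0.03) and Sox6 (-0.06) were dim and differed little. Of 14 proteases and inhibitors 8 were higher and 6 were lower (median 0.02) and a mean of -0.02. Mmp3, stromelysin, was lower by 0.68 (8.08 to 7.39) and Mmp13, the collagenase of hypertrophic cartilage, was higher by 0.52 but dim (3.82 to 4.35). The aggrecanases Adamts4 and Adamts5 differed by 0.08 and -0.19, and Timp1, Timp2 and Timp3 were lower by 0.22 to 0.24.

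Neighbouring genes were read to see whether members and their surroundings differed alike. Of 20 nearest protein-coding neighbours in RefSeq order 16 had a transcript cluster of their own symbol, and 9 of these were higher, 6 lower and 1 equal, with a median of 0.02. On 1 side, Matn1, Matn2 and Matn3 each lie beside a gene of the LAPTM lysosomal membrane protein family. Laptm5, a leukocyte gene beside Matn1, was higher by 0.48 (5.03 to 5.51), while Laptm4b beside Matn2 (-0.02) and Laptm4a beside Matn3 (0.02) hardly differed. Ptpru, on the other side of Matn1, was at 5.01 and 5.10 (0.09), and Wdr35 beside Matn3 differed by -0.14. Rbpjl, which overlaps Matn4, was at 4.56 on both arrays, and 9430069I07Rik, which overlaps Matn2, was dim (3.77 to 3.70). Beside Cilp, the ADP-ribosyltransferase gene Parp16 differed by 0.24 (4.71 to 4.95) and the mitochondrial protease subunit gene Clpx by -0.03. Pbx4 and Yjefn3 beside Cilp2 differed by 0.04 and -0.15. Hmcn1 beside Prg4 (0.07), Lrrc59 beside Chad (0.05), and Gm13194 (-0.04) and Mcm10 (0.02) beside Ucma differed little. Clusters of Slpi, Rab4b and Snrpa also named other genes, and Tpr, which overlaps Prg4, was not analysed here.

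The labelled cell type was checked against marker genes. Of the stromal markers, Pdgfrb (10.38 and 10.49), Thy1 (10.34 and 10.43) and Eng (9.38 and 9.17) were bright on both arrays, whereas Nt5e was dim (3.27 and 3.28). Of the 10 measured stromal markers 8 were higher and 2 were lower (median 0.10), with a summed linear value 1.22 times that of wild type, or 1.12 times without Col1a1. The matrix genes of that list were highest, Lum by 0.60 (4.79 to 5.39), Col1a1 by 0.50 (11.40 to 11.90) and Col3a1 by 0.43 (10.80 to 11.22). They were higher alongside Cilp and the collagen VI chains, and their part in the difference of Cilp was not tested. Dcn and Cd44 in the stromal list are also among the partners above. Of 12 chondrocyte markers 9 were higher and 3 were lower (median 0.06), and 8 were bright. This is not a separate result, since all but Sox9 are also among the other cartilage genes above. Sox9 is among the regulators, and Col2a1, Acan, Comp and the collagen IX chains are also among the partners. Hapln1 (3.58 and 3.55) and Epyc (2.76 and 2.77), which mark differentiated chondrocytes, were below the olfactory receptor percentile on both arrays. Cnmd (3.90 and 3.97) was also below it on both arrays, narrowly on the knockout array. Adipoq, which marks adipocytes, was at 4.50 and 3.86.

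Markers of other cell types that also make these proteins were set beside them. Of the marker lists, tendon genes had the median farthest from 0, with 7 of 8 higher and a median of 0.36, and their summed linear value in the knockout array was 1.55 times that of wild type, or 1.43 times without Col14a1. Col14a1, a collagen of tendon and skin, was at 7.44 on the wild-type array and 8.61 on the knockout array (1.16), and Tnmd, a tendon membrane protein gene, at 7.50 and 8.43 (0.93). Scx and Mkx, the transcription factor genes that define tendon cells, differed by 0.09 and -0.03. Macrophage markers had 8 of 12 higher and 3 lower, a median of 0.22 and a summed value 1.54 times that of wild type, or 1.31 times without Lyz2. They were led by Lyz2 (6.14 to 7.43, 1.29) and Fcer1g (5.13 to 6.02, 0.90), while the defining gene Adgre1 was at 3.33 and 3.25 and Ptprc at 2.86 on both. Schwann cell markers, relevant to Matn2, had 3 of 7 higher and 3 lower, with a summed value of 1.00 times that of wild type. Pmp22, at 10.69 on both arrays, made up 91.5% of that sum, and without it the ratio was 0.96. Sox10 was at 5.22 and 5.27 and S100b at 5.21 and 5.06. Mesothelial markers had 5 of 9 higher and 3 lower and a median of 0.02, with Upk1b at 5.35 and 4.25 (-1.11), Krt18 at 4.58 and 4.22 (-0.35) and Msln at or below 3.66. What part any of these cell types had in the differences of the 10 genes was not tested. In RNA from a whole culture, more cells of a type and more RNA per cell cannot be told apart.

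Markers of the remaining cell types listed are given for completeness. Of 7 endothelial markers 5 were higher and 2 lower (median 0.08), with Cdh5 (3.81 to 4.62) and Emcn (3.24 to 4.04) each higher by 0.80. Both were dim and below the olfactory receptor percentile on the wild-type array. Only 2 of the 7 were bright, Tek (-0.14) and Cldn5 (-0.01). Of 10 mammary epithelial markers 3 were higher and 6 lower (median -0.06), led by Krt18 and Esr1 (0.21). Of 8 adipocyte markers 3 were higher and 5 lower (median -0.06), led by Retn (4.90 to 3.81, -1.08) and Adipoq. Retn and Adipoq were dim and below the olfactory receptor percentile on the knockout array. The 3 bright adipocyte markers, Plin1, Lipe and Fabp4, differed by 0.04, 0.01 and -0.11. Of 8 skeletal muscle markers 4 were higher and 4 lower (median -0.04), led by Des (0.41) and Myh3 (0.32).

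The signs of the 10 differences were the same under every scaling tried. Cilp ranged from 0.36 with quantile normalization to 0.39 with median centring, Matn2 from 0.23 to 0.28, and Prg4 from -0.20 to -0.15. Cilp2 was 0.06 with quantile normalization and 0.11 with median centring, and Matn4 ran from -0.07 to -0.05.

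**Figure D4:**
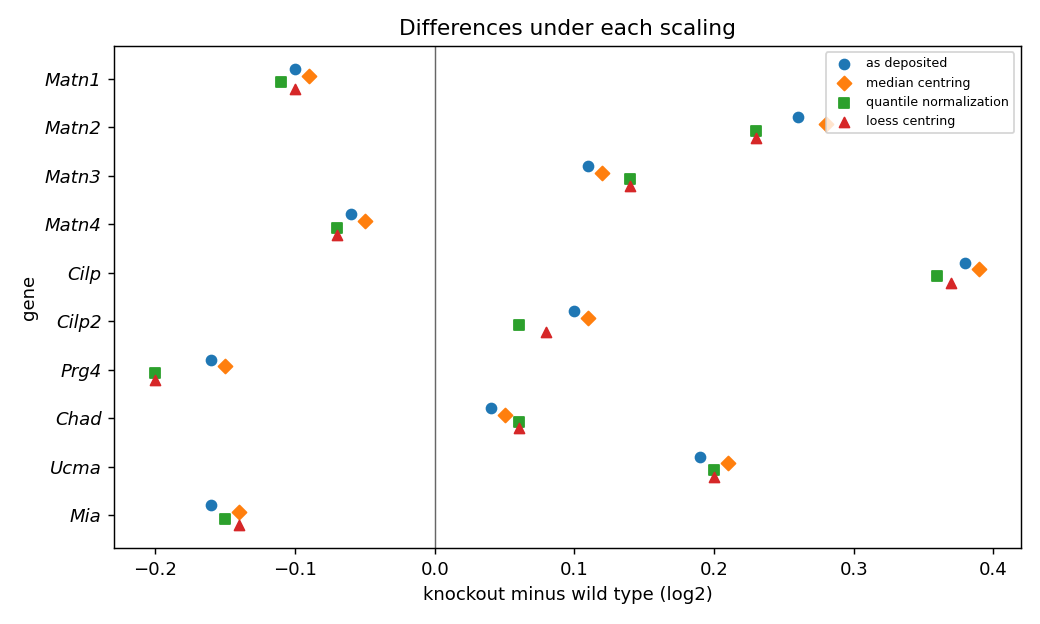
Difference (knockout minus wild type, log2) of each of the 10 genes as deposited and after median centring, quantile normalization and loess centring, 1 symbol per setting. No gene crosses 0, and Cilp stays between 0.36 and 0.39.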

How the data were processed

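Per the submitters' processing notes, the authors deposited log2 expression values made by RMA with Partek. Versions, the arrays normalized together and the array's genome build are not given in the sources used here. RMA aligns array distributions and compresses differences of dim genes. Of 65956 transcript clusters, 30604 listed 1 gene symbol, 2146 several and 33206 none. Symbols were updated by Entrez ID through the RefSeq table of GRCm38.p6 (22818 matched, 827 changed), giving 30142 named genes. Each of the 10 genes had 1 transcript cluster of its own symbol. All other genes kept the cluster with the highest mean.

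Differences are knockout minus wild type in log2, with no further scaling. With 1 array per group there was no test. The members and lists were chosen with earlier results of these data known. The naming rule took the members, Wisp1, the neighbours and, in each of the 5 lists of related genes, those past 2-fold and at least the 2 that differed most. Cell type markers and other list genes named, and the TATAA search, were chosen after their values or letters were seen. The alternatives were median centring, quantile normalization, loess centring (span 0.3), other folds, other level filters, other cluster rules and means of lists. Protein properties had been planned and were not analysed here. The calculation was checked on simulated data with planted differences and no added noise. That check covers the arithmetic only and does not show how reliable a difference between 2 single arrays is. The tools were statsmodels 0.14.6, matplotlib 3.10.9, pandas 2.3.3, numpy 2.4.6 and Python 3.11.15.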

Additional observations from a re-analysis of the deposited data

How the results depend on the processing

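Under quantile normalization and loess centring the 10 genes gave 20 differences, which all kept their sign and stayed within 0.05 of the deposited value. Median centring only adds 0.015 to every difference. The cluster rules changed no value, since each gene had 1 cluster of its own symbol. The median of the 10 genes ranged from 0.02 over the bright members to 0.08 with median centring. No gene was 2-fold higher or lower under any normalization or level filter tried, and above a difference of 0.32 the count higher was 1, Cilp. The regulator list's median was 0.11 over its bright members, and the protease list's mean was -0.02 where its median was 0.02. The cause was not tested. No paired analysis was possible because each group had 1 array. Chad and Matn3 lay below the level that most olfactory receptor genes did not exceed, which limits what their differences can show. The sums of marker lists without their leading gene were chosen after seeing the data.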
